A study of Mus musculus with 90 samples.

Results

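The cell cycle genes followed here are 17 genes that act as cells enter and pass through S phase, when DNA is copied, and 28 genes that act in mitosis, when the copies are separated. They were taken from 2 lists chosen with earlier results of these data known. Each was read from 1 probe set, the one of its gene with the highest mean over all arrays. Of these 45 genes, 44 could be followed among 18194 genes measured: all 17 S phase members and 27 of the 28 mitosis members. Ccnb1, which encodes cyclin B1, was not analysed here because no probe set is listed for it alone.

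The tumours were 90 subcutaneous melanoma allografts, all with the genotype label Hgftg;Cdk4R24C/R24C and strain label B6.cBrd. By these labels the tumours of every group, controls included, carry a transgene for the growth factor HGF and a form of Cdk4 that its inhibitors do not bind well. Cdk4 acts at the gate into S phase, and the state of that gate was not measured here. In study 2, mice dosed at 10 mg/kg with a blocking antibody to PD-L1, a checkpoint ligand that dampens T cells, gave 17 responder, 14 non-responder, 3 relapse and 2 growth delay tumours. The controls of study 2 were 14 tumours under a control mouse IgG at 10 mg/kg and 3 under PBS at 10 ml/kg. In study 3 the same antibody dose gave 10 responder, 9 non-responder, 3 relapse and 3 stabilization tumours, with 8 IgG and 4 PBS tumours as controls. Responders had shrunk by at least 5% in volume, non-responders grew on and were taken at similar times, and relapse tumours had become too small to measure and then returned under dosing. Stabilization tumours were responders with no change of volume from one measurement to the next, and growth delay tumours first arose once dosing was under way. Animal numbers run in separate blocks for PBS, IgG and antibody mice in both studies, so a treatment effect and a cohort difference cannot be told apart in any comparison with PBS or IgG.

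Passage through the cycle is driven by waves of transcription. E2F factors switch on the genes of DNA replication before S phase, and the MuvB complex with B-Myb and FoxM1 switches on mitotic genes later, through a short promoter element called the CHR, often beside CCAAT boxes. Both waves are silent in resting cells, so their transcripts are widely read as a sign of dividing cells, and Mki67, Top2a and Pcna are common markers of proliferation in tumours. In whole tumours, fewer dividing cells and less RNA per cell cannot be told apart.

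The promoters of the members divide along these lines. RefSeq promoter windows (GRCm38.p6, from 250 bases before to 50 after the start) were available for 14 S phase and 22 mitosis members. The CHR, searched as TTTGAA or TTCGAA on both strands, was found in 17 of the 22 mitosis members (77.3%) and 2 of the 14 S phase members (14.3%), against 21.7% of all 27025 genes in the table. The E2F motif, searched as TTTGGCGC, TTTCCCGC, TTTGCCGC or TTTCGCGC on both strands, was found in 6 of the 14 S phase members (42.9%), 1 mitosis member (4.55%) and 2.6% of all genes. CCAAT was found in 57.1%, 72.7% and 41.1%, in the same order, and CHR and CCAAT together in 14.3%, 68.2% and 8.61%. These are letter matches, and a window without a match says only that these letters are not in it. Letters of different motif types share no base in the 6 windows below, but E2F matches can overlap each other, as in Mcm6.

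These 6 promoters show both kinds, with every motif match in capitals and each sequence on its gene's own strand. Cdk1 encodes the mitotic kinase and is the mitosis member whose window also holds an E2F match. Ccnb2 encodes its partner cyclin B2, and Bub1 encodes a kinase of the spindle checkpoint. Mcm3 and Mcm6 encode subunits of the replicative helicase, and Cdc6 encodes a loader of that helicase.
Cdk1 (chr10:69352863-69353162, minus strand): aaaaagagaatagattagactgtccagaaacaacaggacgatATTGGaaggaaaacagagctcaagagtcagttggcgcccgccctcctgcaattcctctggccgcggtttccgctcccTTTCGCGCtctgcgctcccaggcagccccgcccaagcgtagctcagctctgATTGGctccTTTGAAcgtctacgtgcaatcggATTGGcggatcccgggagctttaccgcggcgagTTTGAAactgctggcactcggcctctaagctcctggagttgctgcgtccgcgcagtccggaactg
Ccnb2 (chr9:70421505-70421804, minus strand): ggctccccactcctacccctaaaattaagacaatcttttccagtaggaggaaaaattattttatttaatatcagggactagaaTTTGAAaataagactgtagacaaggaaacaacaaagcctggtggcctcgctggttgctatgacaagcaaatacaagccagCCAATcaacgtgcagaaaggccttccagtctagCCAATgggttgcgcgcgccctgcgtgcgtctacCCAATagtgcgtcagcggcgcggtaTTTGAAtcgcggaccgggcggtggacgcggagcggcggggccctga
Bub1 (chr2:127831810-127832109, minus strand): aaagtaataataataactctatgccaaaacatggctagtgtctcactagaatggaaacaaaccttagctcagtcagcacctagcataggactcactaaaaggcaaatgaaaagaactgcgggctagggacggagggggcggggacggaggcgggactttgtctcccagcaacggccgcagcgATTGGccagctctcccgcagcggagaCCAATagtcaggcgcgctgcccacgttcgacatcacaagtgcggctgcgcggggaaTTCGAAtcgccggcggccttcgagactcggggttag
Mcm3 (chr1:20820263-20820562, minus strand): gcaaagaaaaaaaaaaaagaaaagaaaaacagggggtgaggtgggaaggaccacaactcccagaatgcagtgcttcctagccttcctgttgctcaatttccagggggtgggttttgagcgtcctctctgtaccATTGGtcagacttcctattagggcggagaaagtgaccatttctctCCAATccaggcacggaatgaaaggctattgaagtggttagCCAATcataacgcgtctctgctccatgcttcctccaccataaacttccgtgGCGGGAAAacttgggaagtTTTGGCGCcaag
Mcm6 (chr1:128359656-128359955, minus strand): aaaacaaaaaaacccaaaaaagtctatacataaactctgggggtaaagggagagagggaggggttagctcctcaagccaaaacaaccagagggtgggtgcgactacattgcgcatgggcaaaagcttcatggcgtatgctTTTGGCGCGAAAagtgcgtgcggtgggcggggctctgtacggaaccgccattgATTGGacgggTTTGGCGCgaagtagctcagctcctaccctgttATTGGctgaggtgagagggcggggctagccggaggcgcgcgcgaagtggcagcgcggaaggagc
Cdc6 (chr11:98907901-98908200, plus strand): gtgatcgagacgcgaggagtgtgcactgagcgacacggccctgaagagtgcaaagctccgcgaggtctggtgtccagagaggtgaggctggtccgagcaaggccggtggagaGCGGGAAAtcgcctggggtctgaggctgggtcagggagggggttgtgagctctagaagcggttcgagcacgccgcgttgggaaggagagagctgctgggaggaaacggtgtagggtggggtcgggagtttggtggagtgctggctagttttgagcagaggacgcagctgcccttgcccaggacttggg

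Over the 12 groups both classes were nearly level. The mean log2 value of the 17 S phase members lay between 10.12 and 10.22 in 10 of the 12 groups, and that of the 27 mitosis members between 9.82 and 9.94 in the same 10. The exceptions were the study 3 responders, at 9.90 ± 0.53 (SD, n = 10) for S phase and 9.50 ± 0.69 for mitosis, and the study 3 stabilization tumours, at 9.52 ± 0.68 (SD, n = 3) and 9.17 ± 0.75. The study 3 IgG tumours stood at 10.16 ± 0.06 (SD, n = 8) and 9.86 ± 0.05. Spread as well as level set the exceptions apart: study 3 responder replicates 3 and 4 and stabilization replicates 1 and 2 had mitosis means of 7.73 to 9.30. Study 3 responder replicate 2, at 9.58, was also below every control tumour, of which the lowest had 9.64.

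**Figure D1:**
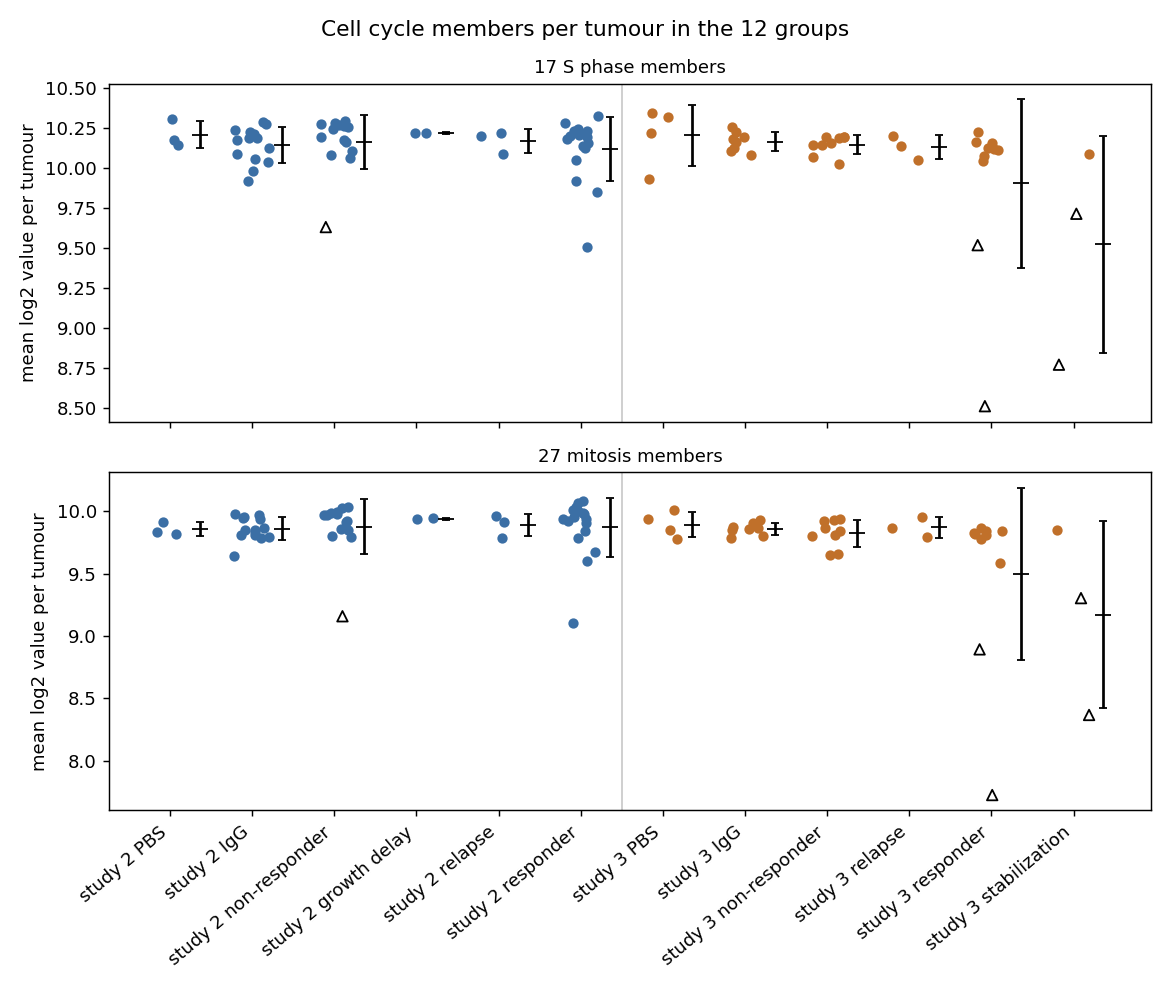
Mean log2 value of the 17 S phase members (top) and the 27 mitosis members (bottom) in each of the 90 tumours, by group, with group mean and SD as bars and study 2 in blue, study 3 in orange. Open triangles are the 5 tumours low in melanocyte transcripts; 4 of them lie in the study 3 responder and stabilization groups, and the lowest has a mitosis mean of 7.73.

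The lowest 6 tumours were the same for S phase and mitosis. By mitosis mean they were study 3 responder replicate 4 at 7.73, study 3 stabilization replicate 1 at 8.37, study 3 responder replicate 3 at 8.89, study 2 responder replicate 4 at 9.10, study 2 non-responder replicate 14 at 9.16 and study 3 stabilization replicate 2 at 9.30. All but study 2 responder replicate 4 were also the 5 tumours lowest in melanocyte transcripts. The mean of 12 melanocyte transcripts was 6.51 and 6.58 in study 3 responder replicates 4 and 3, 6.75 and 8.69 in stabilization replicates 1 and 2, and 8.16 in study 2 non-responder replicate 14. Group medians for that mean ran from 9.52 to 9.90 in every group but stabilization.

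Transcripts of other cell types were high in the same tumours. The 10 skeletal muscle transcripts averaged 13.77 in study 3 responder replicate 4 and 11.91 in stabilization replicate 2, against a median of 5.42 in the study 3 IgG tumours. They were also high in study 3 responder replicates 5, 7 and 8, at 11.68, 9.64 and 9.84, whose mitosis means of 9.82, 9.83 and 9.84 lay with the controls. The 7 B cell transcripts averaged 9.75 in study 3 responder replicate 3 and 9.25 in study 2 non-responder replicate 14, against 5.10. The 7 fibroblast transcripts averaged 12.91 in stabilization replicate 1 and 12.49 in study 2 responder replicate 4, against 9.66. Stabilization replicate 3 was unlike the other 2 of its group, with 9.80 for melanocyte transcripts, 10.09 for S phase and 9.85 for mitosis. Without the 5 tumours, the mitosis mean of the study 3 responders was 9.79 and differed from the IgG mean of that study by -0.065, compared with -0.36 with all 10 tumours. What part the other cell types had in the lower cycle values was not tested.

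**Figure D2:**
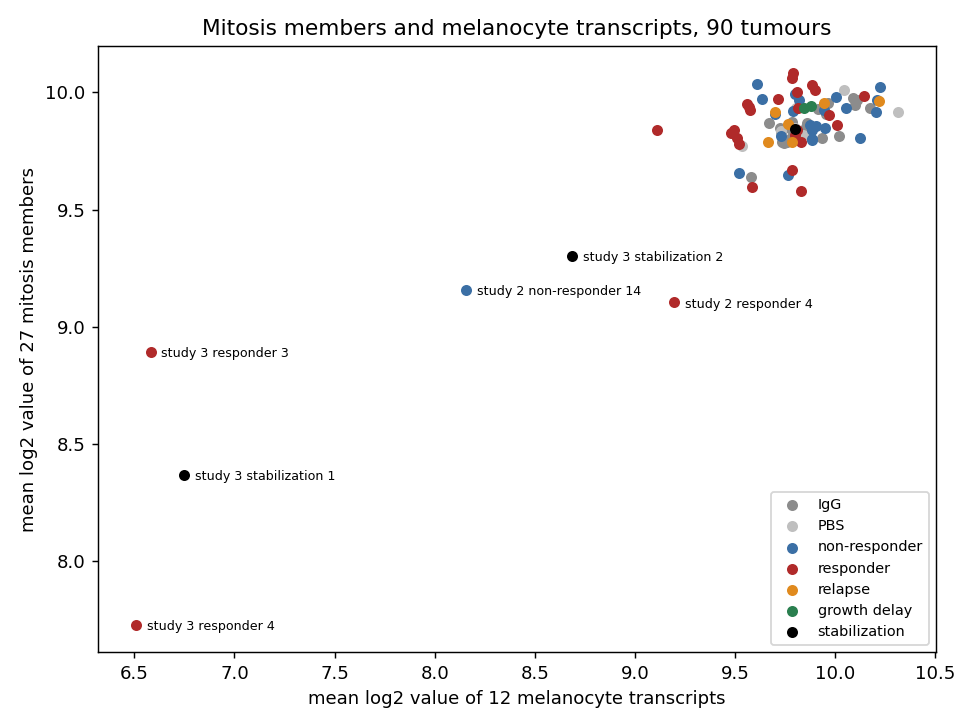
Mean log2 value of 12 melanocyte transcripts (x axis) and of the 27 mitosis members (y axis) in each of the 90 tumours, coloured by outcome. Of the 6 tumours labelled by study, outcome and replicate, 5 are the lowest on the x axis; the sixth, study 2 responder 4, lies at 9.20 and 9.10.

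Within groups, the means of the S phase and of the mitosis members moved together. After group means were removed, the per-tumour means of the classes correlated with r = 0.95 over 90 tumours and r = 0.79 over the 85 left without the 5 low ones. The mitosis mean and the melanocyte mean correlated with r = 0.87 over 90 tumours and 0.47 over 85, and the mitosis mean correlated with the T cell mean at -0.50 and -0.28. Single genes were less alike: over 85 tumours the median correlation between mitosis members was 0.38 and the lowest -0.78. Between S phase and mitosis members the median was 0.33 and the lowest -0.84. These correlations describe arrays that share processing and RNA handling.

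Proliferation markers did not share 1 pattern. Mki67, a marker protein that coats mitotic chromosomes, averaged 10.58 ± 0.52 (SD, n = 14) under IgG and 10.44 ± 0.71 (n = 3) under PBS in study 2, and 10.60 ± 0.38 (n = 8) and 10.72 ± 0.62 (n = 4) in study 3. In study 2 it was 11.01 ± 0.40 in responders, 10.71 ± 0.52 in non-responders, 11.04 ± 0.17 in relapse and 10.92 ± 0.41 in growth delay tumours. In study 3 it was 10.61 ± 0.46 in responders, 10.40 ± 0.39 in non-responders, 11.12 ± 0.02 in relapse and 10.40 ± 0.40 in stabilization tumours. Relapse tumours thus had the highest Mki67 mean of each study. Group ranges overlapped within each study except that the lowest study 3 relapse tumour (11.09) was above the highest non-responder (10.94) and the highest stabilization tumour (10.75) of that study.

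Top2a, a topoisomerase that untangles chromosomes, had group means between 10.84 and 11.32 in 11 groups and 10.52 ± 0.66 in stabilization tumours. By group it averaged 11.11 ± 0.24, 10.99 ± 0.18, 11.25 ± 0.30, 11.14 ± 0.28, 11.32 ± 0.20 and 11.20 ± 0.04 in the IgG, PBS, responder, non-responder, relapse and growth delay tumours of study 2. In study 3 the IgG, PBS, responder, non-responder and relapse means were 11.001 ± 0.20, 11.01 ± 0.29, 10.85 ± 0.66, 10.84 ± 0.24 and 11.23 ± 0.09. The study 3 relapse mean was above the non-responder mean of that study by more than either SD. Of its 3 probe sets a dim one fell in responders against non-responders (log2 fold change -0.31 ± 0.06 SE) while the one used here gave 0.06 ± 0.10.

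Mcm2, another helicase subunit, and Pcna, the sliding clamp of the replication fork, took different courses. Mcm2 averaged 9.71 ± 0.31, 9.74 ± 0.53, 9.99 ± 0.26, 9.92 ± 0.26, 9.96 ± 0.05 and 10.16 ± 0.34 in the IgG, PBS, responder, non-responder, relapse and growth delay tumours of study 2. In study 3 it averaged 9.58 ± 0.24, 9.43 ± 0.68, 9.50 ± 0.35, 9.37 ± 0.35, 9.97 ± 0.17 and 9.05 ± 0.79 in the IgG, PBS, responder, non-responder, relapse and stabilization tumours. Its responders and non-responders overlapped widely in both studies.

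Pcna averaged 13.25 ± 0.15, 13.41 ± 0.15, 13.09 ± 0.27, 13.27 ± 0.23, 13.11 ± 0.16 and 13.24 ± 0.07 in the IgG, PBS, responder, non-responder, relapse and growth delay tumours of study 2. In study 3 its means were 13.23 ± 0.08, 13.29 ± 0.12, 12.95 ± 0.45, 13.31 ± 0.08, 13.05 ± 0.05 and 12.84 ± 0.37 in the IgG, PBS, responder, non-responder, relapse and stabilization tumours. Relapse tumours of study 3 all lay below every non-responder for Pcna (highest 13.08 against lowest 13.21), the opposite order to Mki67.

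**Figure D3:**
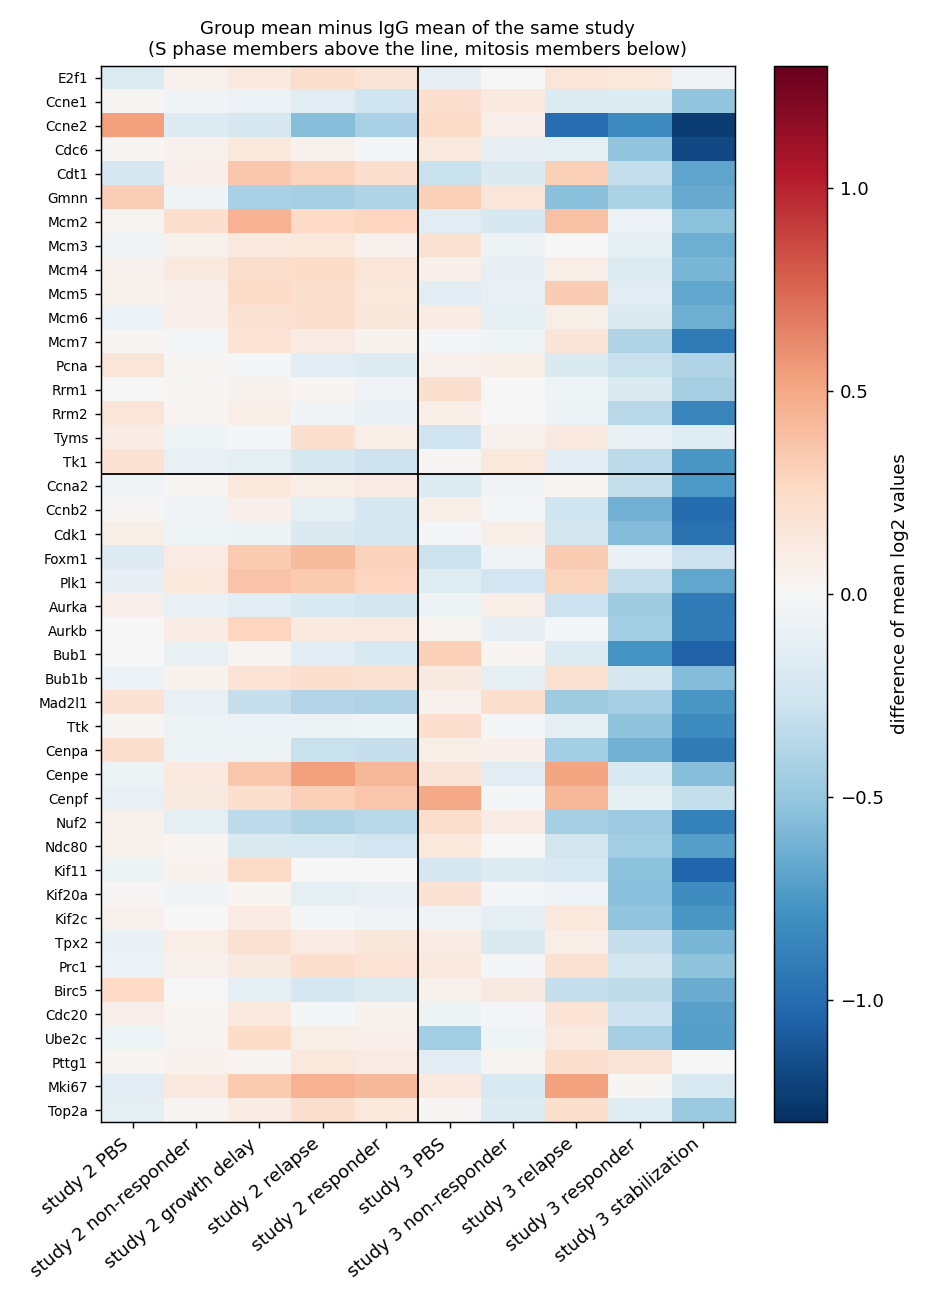
Difference of each member's group mean from the IgG mean of the same study, in log2 units, for 44 members (rows) and 10 groups (columns). Red is higher and blue lower; the stabilization column is below 0 for all 44 members, down to -1.23 for Ccne2, while the study 2 responder column and both relapse columns mix red rows such as Mki67 and Cenpe with blue rows such as Ccne2 and Gmnn.

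Responders and non-responders were compared to ask whether tumours that shrank under the antibody differed in their cycle genes. Averaged over both studies, 17 of the 44 members fell and none rose in responders (limma, Benjamini-Hochberg adjusted p below 0.05 over all genes), 6 of the 17 S phase and 11 of the 27 mitosis members. Of all genes tested, 32.3% fell and 18.9% rose, so the share of members that fell was close to that background. The median log2 fold change was -0.12 for S phase members and -0.17 for mitosis members, against -0.06 for all genes. The falls were modest, the deepest being 1.49-fold.

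In the cyclin E and E2F group, Ccne2 and Ccne1, the cyclins that start S phase with Cdk2, fell by 0.57 ± 0.23 and 0.26 ± 0.07 on the log2 scale (SE; adjusted p = 0.0291 and 0.00213). Ccne2 also had the widest spread within groups of any member. In study 2 its lowest, median and highest values were 7.99, 8.52 and 10.02 in responders and 7.44, 8.72 and 10.72 in non-responders, and in study 3 they were 6.16, 9.27 and 9.81 against a median of 9.95 and a highest value of 10.19. The groups overlapped in both studies. E2f1, an activator of the S phase genes, was 0.12 ± 0.07 higher and did not pass (adjusted p = 0.162).

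Of the 9 replication licensing members only Gmnn passed. It encodes geminin, which blocks relicensing, and fell by 0.46 ± 0.14 (adjusted p = 0.00658). Responders ran from 9.20 through a median of 9.71 to 10.76 in study 2, against 9.46, 10.16 and 11.001 in non-responders. In study 3 they ran from 8.57 through 10.31 to 11.04, against 10.31, 10.94 and 11.10. The 6 subunits of the helicase showed log2 fold changes from -0.14 for Mcm7 to 0.10 for Mcm2, none past the threshold. Among the clamp and nucleotide supply genes, Pcna fell by 0.27 ± 0.07 (adjusted p = 0.00195), Tk1, a thymidine kinase, by 0.33 ± 0.11 (adjusted p = 0.0125) and Rrm2, a subunit of ribonucleotide reductase, by 0.24 ± 0.10 (adjusted p = 0.0471). Tyms, thymidylate synthase, was dim, with a mean of 4.94 over all arrays on the probe set used.

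Among the mitotic cyclins and kinases, Ccnb2 (-0.39 ± 0.12, adjusted p = 0.00879), Cdk1 (-0.41 ± 0.13, adjusted p = 0.00945) and Aurka (-0.35 ± 0.13, adjusted p = 0.0217), a kinase of the spindle poles, fell. Cdk1 values were 10.14, 11.26 and 11.67 (lowest, median, highest) in study 2 responders and 9.85, 11.52 and 11.90 in non-responders. In study 3 they were 8.80, 11.22 and 11.67 against 11.31, 11.53 and 11.63. Foxm1 and Plk1, the factor and the kinase that drive mitotic entry, gave 0.07 and 0.04 and did not pass.

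Of 4 spindle checkpoint members 3 fell, the genes whose products hold back anaphase: Mad2l1 by 0.47 ± 0.13 (adjusted p = 0.00438), Bub1 by 0.45 ± 0.14 (adjusted p = 0.00664) and Ttk by 0.25 ± 0.11 (adjusted p = 0.046). Mad2l1 ran from 9.94 through 10.70 to 11.48 in study 2 responders and from 10.29 through 10.85 to 11.75 in non-responders. In study 3 it ran from 8.87 through 11.18 to 11.69 against 11.27, 11.67 and 11.82. Bub1 fell to 6.96 in study 3 responder replicate 4, with a responder median of 10.15 against 10.44 in non-responders of that study.

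At the centromere and kinetochore, Cenpa, the histone variant that marks centromeres, fell by 0.46 ± 0.13 (adjusted p = 0.00284), Ndc80 by 0.37 ± 0.11 (adjusted p = 0.00687) and Nuf2 by 0.41 ± 0.14 (adjusted p = 0.0116). Ndc80 and Nuf2 are partners in the complex that grips microtubules. Cenpe, a kinetochore motor, was 0.13 ± 0.12 higher and did not pass (adjusted p = 0.376). Of the spindle motors and midzone genes, Birc5, which encodes survivin, fell by 0.31 ± 0.10 (adjusted p = 0.0105) and Kif20a, a motor of cell division, by 0.29 ± 0.11 (adjusted p = 0.0251). No member of the anaphase promoting group or of the chromosome structure pair passed, Mki67 giving 0.25 ± 0.13 (adjusted p = 0.099).

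**Figure D4:**
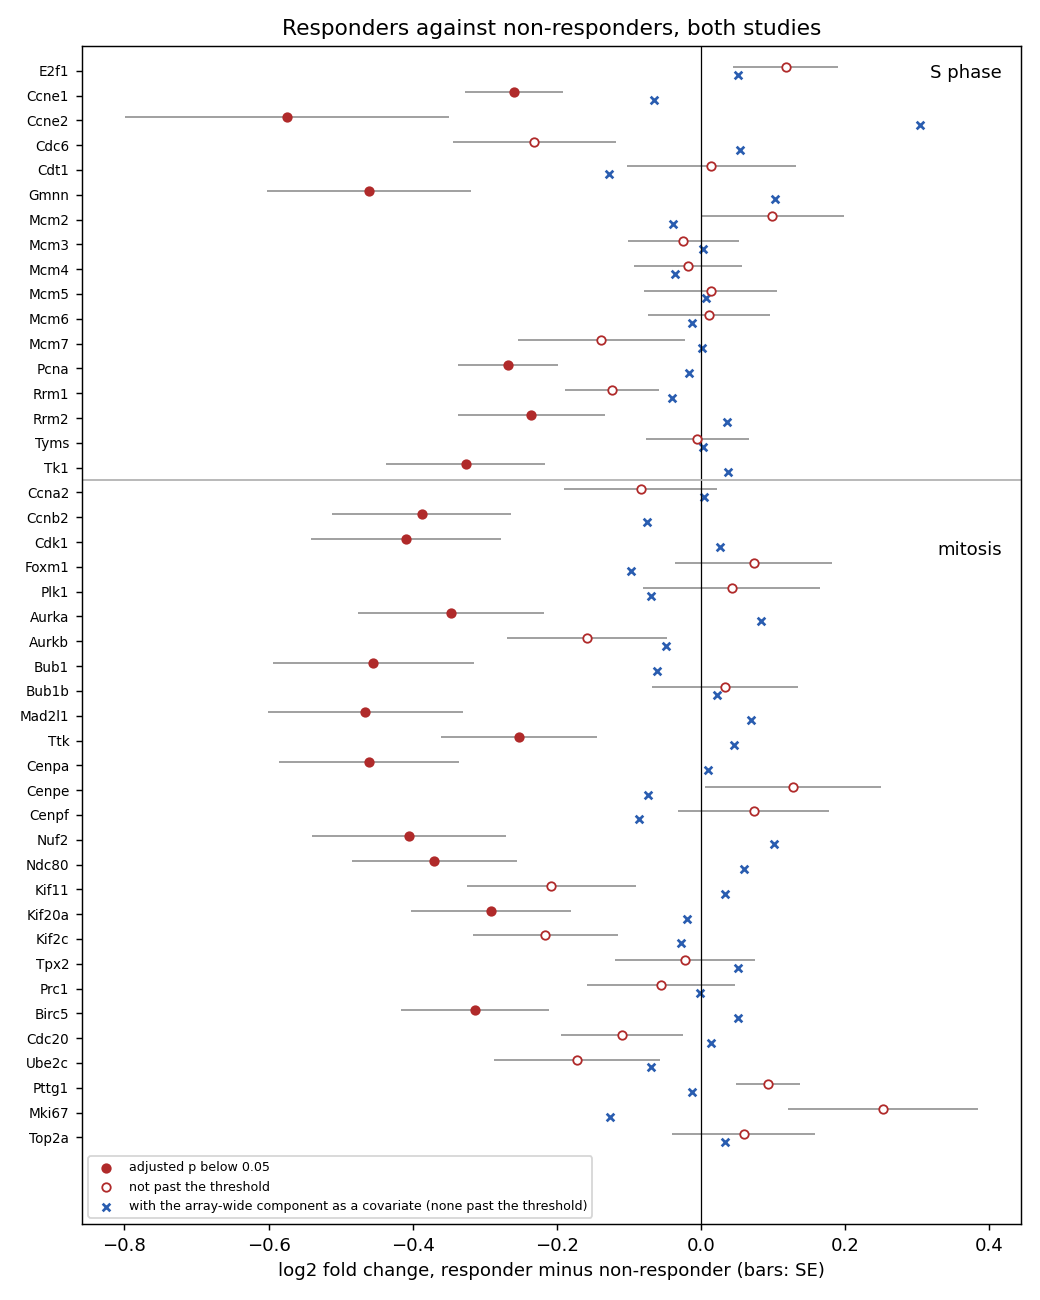
Log2 fold change of each of 44 members, responder minus non-responder over both studies, with SE bars; filled circles passed an adjusted p of 0.05 in limma. Blue crosses are the same difference with the array-wide component as a covariate, where none of the 44 passed; for Ccne2 it moves from -0.57 to 0.30.

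Probe sets of 1 gene did not always agree. Of 29 members with over 1 probe set, 18 had all probe sets on the same side of 0 in this comparison and 11 did not. Cenpa gave -0.46 on the probe set used, -0.15 on a dim one and 0.04 on another. Bub1 gave -0.45 and -0.38, Rrm2 -0.24, -0.41 and -0.37, and Cdc20, an activator of the anaphase promoting complex, -0.11 on the probe set used and -0.30 and -0.22 on the others.

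The studies gave different counts. In study 2 alone none of the 44 members passed, while 2.01% of all genes fell and 0.616% rose. At an unadjusted limma p below 0.05 there were 4 members and 4837 of 18194 genes. In study 3 alone 17 fell and none rose, with 22.4% of all genes lower and 14.4% higher. The difference between the studies was itself tested, and no member passed, nor did any other gene, 0% of 18194. For that difference 4 members and 2418 genes had an unadjusted p below 0.05. Leaving out study 3 responder replicate 4 reduced the 17 members in study 3 to 2, and leaving out replicate 3 reduced them to 5. With only the groups compared in the fit, none of the 17 passed. The shares of all genes called in these refits are not given here. A loss particular to these members therefore cannot be told from a general one.

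Without the 5 tumours low in melanocyte transcripts, 13 of the 17 members still fell over both studies, and Ccne2, Kif20a, Rrm2 and Ttk did not pass. E2f1 and Top2a then rose, and 30% of all genes were lower and 17.2% higher. In study 2 alone 9 members fell without them (15% of all genes lower, 9.93% higher). In study 3 alone 1 did, Bub1, by 0.31 ± 0.11 (6.25% lower, 6.25% higher).

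The fall of these genes went with a component that ran through all arrays. This component is the first principal component of 18023 genes in none of the lists, taken within groups over 85 tumours, and it held 30.3% of the variance within groups. Of all genes, 37.3% correlated with it beyond 0.5 in either direction. It was high where Btf3l4, Tm2d1 and Acyp1 were high and low where Wnk1, Ctdsp2 and Klf13 were high. The members split along it: Mad2l1 (r = 0.92), Gmnn (0.92), Cenpa (0.91) and Ccne2 (0.87) lay at one end, and Mki67 (-0.85), Cenpe (-0.77) and Cdt1 (-0.74), a licensing factor, at the other.

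The same split was present in tumours that never received the antibody. Among the 22 IgG tumours, which were part of the 85, Mad2l1 correlated with the component at 0.915 and Mki67 at -0.87, and 16 members lay above 0.5 and 20 below -0.5. All 15 members with a correlation above 0.5 over 85 tumours were among the 17 that fell in responders, the other two being Ccnb2 (0.40) and Kif20a (0.37). None of the 14 members below -0.5 passed, their median log2 fold change being 0.07.

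**Figure D5:**
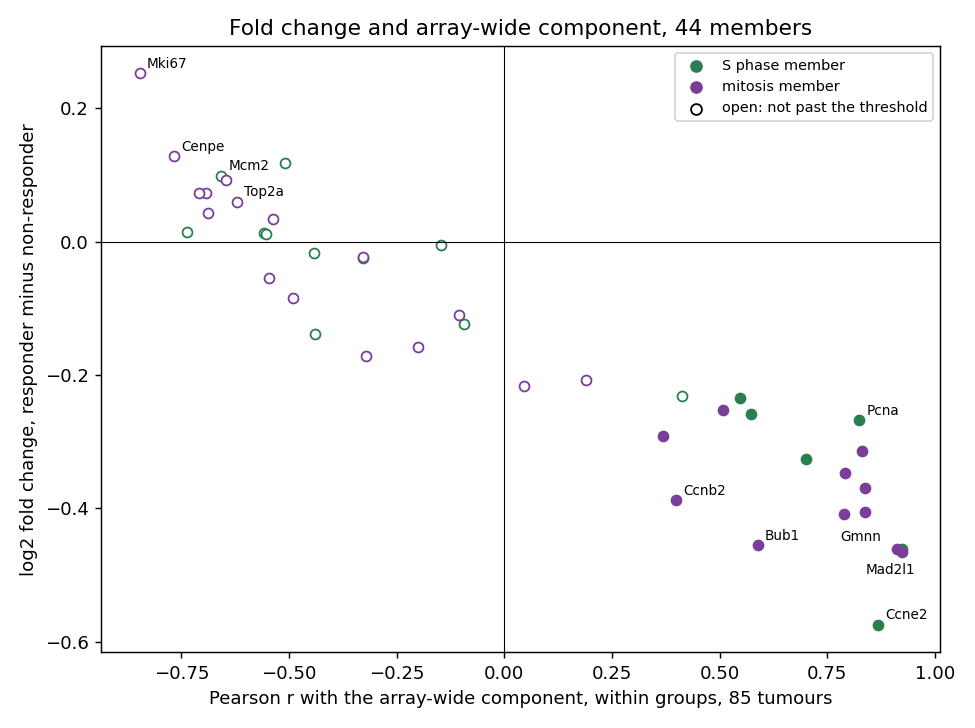
Log2 fold change of 44 members in responders against non-responders (y axis) by each member's correlation within groups with the array-wide component (x axis, 85 tumours); filled points passed the threshold. The 15 members right of 0.5 are all filled and lie between -0.57 and -0.24, and the 14 left of -0.5 are all open and lie between -0.05 and 0.25.

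Groups differed in their scores on the component, which are scaled to an SD of 1 over the 90 arrays. Responders averaged -0.64 ± 0.84 (SD, n = 17) in study 2 and -0.51 ± 1.02 (n = 10) in study 3, and non-responders 0.10 ± 0.92 (n = 14) and 0.91 ± 0.55 (n = 9). IgG tumours averaged 0.25 ± 0.87 (n = 14) and 0.56 ± 0.72 (n = 8), and relapse tumours -0.78 ± 0.45 and -0.71 ± 0.36 (n = 3 each). Within groups the score correlated with the means of macrophage (-0.58), endothelium (-0.64), fibroblast (-0.53) and T cell transcripts (-0.33), with melanocyte transcripts at 0.04 and with the 3 prime minus 5 prime difference of control probe sets at -0.20. That last value includes study 3 PBS replicate 2, with a difference of 5.20, the next highest being 0.935. It therefore says little about the other arrays.

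With the score as a covariate, chosen after seeing the data, none of the 44 members passed between responders and non-responders (1 at an unadjusted p below 0.05), while 0.484% of all genes fell and 0.621% rose. The genes still higher in responders included the T cell genes Cd3d (1.24 ± 0.31, adjusted p = 0.0321) and Cd8a (0.86 ± 0.23, adjusted p = 0.0412). They are named from 11 measured T cell transcripts, and how many of the 11 passed in this fit is not given here. Mad2l1 went from -0.47 to 0.07 ± 0.07, Cenpa from -0.46 to 0.01 ± 0.07 and Bub1 from -0.45 to -0.06 ± 0.12. The score differs between the groups compared, so such a fit also removes any response effect that lies along it.

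Responders were also compared with IgG tumours, a comparison that shares all 27 responder arrays with the one above. In all, 16 members fell and 1 rose, with 20.1% of all genes lower and 15.3% higher. Kif2c, a motor that takes microtubules apart, fell by 0.28 ± 0.10 (limma adjusted p = 0.0288). The deepest falls were Ccne2 (-0.63 ± 0.23, adjusted p = 0.0289), Bub1 (-0.49 ± 0.14, adjusted p = 0.00765) and Cenpa (-0.46 ± 0.13, adjusted p = 0.0056). The rise was Pttg1, securin, which guards sister chromatids until anaphase, at 0.13 ± 0.05 (adjusted p = 0.0188).

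By study the direction was mixed. In study 2, Cenpe (0.43 ± 0.15), Mki67 (0.42 ± 0.16) and Cenpf (0.36 ± 0.13), another kinetochore protein, rose against IgG and Ccne1 fell by 0.26 ± 0.08, with 10.9% of all genes higher and 16.5% lower. In study 3, 8 members fell, led by Bub1 (-0.77 ± 0.23), and none rose, with 8.18% of genes lower and 9.2% higher. Without the 5 tumours low in melanocyte transcripts, Cenpa, Bub1 and Ccnb2 still fell and Pttg1 and E2f1 rose over both studies (11.1% of genes lower, 10.4% higher). Leaving out study 3 responder replicate 4 alone left 8 calls, and leaving out replicate 3 left 10, counts given without their shares of all genes. With the array-wide component as a covariate no member passed, at an unadjusted p below 0.05 either (0.104% lower, 0.89% higher).

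Between non-responders and IgG tumours none of 44 members passed in limma, nor reached an unadjusted p below 0.05, and their log2 fold changes lay between -0.07 and 0.06. Only 0.0055% of all genes passed, and 1101 of 18194 had an unadjusted p below 0.05. In study 3 alone, where 0.693% of genes passed, again no member was among them. PBS and IgG tumours likewise gave no member past the threshold or an unadjusted p below 0.05 (0.0055% of genes, with 1185 of 18194 unadjusted). Growth delay against IgG tumours gave none either (0% of genes, with 989 unadjusted). Members lay from -0.42 to 0.45 in the 2 growth delay tumours.

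Relapse tumours ask whether a tumour that returned under dosing had regained the programme of a growing one. Against responders no member passed, nor did any other gene (0%). At an unadjusted limma p below 0.05 there were 2 members and 962 of 18194 genes. Against IgG no member passed either (1.09% of genes), with 8 members and 5851 of 18194 genes at an unadjusted p below 0.05. Against non-responders Cenpe rose, by 0.53 ± 0.19 (adjusted p = 0.0394), beside 9.96% of genes higher and 14.1% lower. Its values were 9.23, 9.07 and 9.04 in study 2 relapse tumours and 9.08, 9.09 and 9.35 in those of study 3. All 3 study 3 values were above the highest non-responder of that study (9.01), while those of study 2 lay within the non-responder range of 7.92 to 9.48. Leaving out any 1 relapse tumour ended this call, and without study 2 non-responder replicate 14 there were 3 calls. For these refits too no share of all genes is given.

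Without the 5 low tumours, relapse against non-responders gave 4 rises, Top2a, Mcm5, Cenpe and Mki67, and 10 falls, with 17.9% of genes higher and 23.4% lower. The falls included Mad2l1 (-0.51), Cenpa (-0.40) and Ccne2 (-0.76), again the members that lie high on the array-wide component. With that component as a covariate no member passed (4 at an unadjusted p below 0.05, with no share of all genes given for this fit).

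The 3 stabilization tumours of study 3 showed the deepest falls. Against non-responders of that study 30 of 44 members fell and none rose, 13 of the 17 S phase and 17 of the 27 mitosis members, with 18% of all genes lower and 13.3% higher. The median was -0.57 for S phase and -0.70 for mitosis members, against -0.10 for all genes. Against IgG 27 fell and none rose (11.5% lower, 10.7% higher). Against responders none passed (0.11% of genes), although all 44 differences were below 0. There 10 members and 1420 of 18194 genes had an unadjusted limma p below 0.05.

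Cdc6, the helicase loader, was 6.52, 7.69 and 8.59 in stabilization replicates 1 to 3, and 8.34, 8.70 and 8.86 (lowest, median, highest) in non-responders. Replicates 1 and 2 lay below every non-responder and replicate 3 within their range. The fall was 2.09-fold, or 1.06 ± 0.26 on the log2 scale (limma adjusted p = 0.00293). Cdk1 was 9.395, 10.56 and 11.37 against 11.31 to 11.63, a fall of 1.05 ± 0.30 (adjusted p = 0.00779).

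Bub1 was 8.24, 9.45 and 10.44 against 10.30 to 10.65, a fall of 1.08 ± 0.32 (adjusted p = 0.00918). In both genes the same order held, with replicate 1 lowest and replicate 3 inside the non-responder range. Ccne2 fell by 1.29 ± 0.51 (adjusted p = 0.0459), and its values were 7.54, 8.38 and 9.45, with replicates 1 and 2 below every non-responder.

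All roles but 1 held members that fell: 7 of 9 licensing genes, 4 of 5 clamp and nucleotide genes, 5 of 7 mitotic cyclins and kinases, 3 of 4 checkpoint genes and 3 of 5 kinetochore genes. Also 2 of 3 cyclin E and E2F genes, 4 of 6 motor and midzone genes and 2 of 3 anaphase promoting genes fell. Mki67 and Top2a, the chromosome structure pair, did not pass, at 0.00 and -0.32. Of the helicase subunits, Mcm3, Mcm4, Mcm5, Mcm6 and Mcm7 fell here and against IgG, and none of them passed between responders and non-responders.

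Stabilization replicates 1 and 2, the ones low in melanocyte transcripts, had mitosis means of 8.37 and 9.30, against 9.85 in replicate 3. Without the 5 low tumours only replicate 3 was left in this group, so that fit cannot decide whether the 44 members fell. Replicate 3 differed from the IgG mean of study 3 by -0.08 for S phase and -0.014 for mitosis. With all 3 tumours these differences were -0.64 and -0.69. Leaving out replicate 1 alone left no member past the threshold against non-responders or IgG. Leaving out replicate 2 left 20 against non-responders and 12 against IgG. With only the groups compared in the fit, 5 passed against IgG. Against responders, 11 passed without stabilization replicate 3 and 6 without study 3 responder replicate 4. The counts from leaving out single tumours or fitting only the groups compared are given without their shares of all genes. With the array-wide component as a covariate none passed against non-responders (0.0605% of genes lower, 0.181% higher). In that fit 18 members had an unadjusted p below 0.05, a count given without its share of all genes. Against IgG 6 still fell with it (2.74% lower, 2.79% higher): Cdc6, Cdt1, Mcm2, Mcm3, Mcm4 and Mcm6, all of them licensing genes.

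Other genes of the same pathways, also listed with earlier results of these data known, were counted in the same way. Of 18 further measured S phase genes, 9 fell and none rose between responders and non-responders, where 32.3% of all genes fell and 18.9% rose. They were led by the replisome gene Gins2 (-0.69 ± 0.15, limma adjusted p = 0.000461), the clamp loader Rfc4 (-0.65 ± 0.17, adjusted p = 0.00158) and Gins1 (-0.58 ± 0.15, adjusted p = 0.00227). Of 22 further mitosis genes 4 fell, led by Cks2, a partner of Cdk1 (-0.36 ± 0.12, adjusted p = 0.0128), and Melk and Cdca3, and 1 rose, Incenp, the scaffold of Aurora B (0.28 ± 0.10, adjusted p = 0.0224). With the array-wide component as a covariate none of the 18 passed in limma (1 at an unadjusted p below 0.05) and none of the 22 (0 unadjusted). In stabilization tumours against non-responders 13 of the 18 and 14 of the 22 fell and none rose, beside 18% of all genes lower, led by Mcm10 (-0.92), Rpa2 (-0.84) and Chek1 (-1.20) and by Spag5 (-0.96), Cdca3 (-0.87) and Ect2 (-1.35). Leaving out the 5 tumours low in melanocyte transcripts left only replicate 3 in the stabilization group. That fit therefore cannot decide whether the 18 and the 22 fell in stabilization tumours.

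Brakes on the cycle, listed with the same knowledge of these data, were counted too. Of 15, 4 rose and 2 fell between responders and non-responders, where 18.9% of all genes rose and 32.3% fell. The list thus did not move in 1 direction. Values are given for the 3 brakes with the smallest p, which rose here and in stabilization tumours. Those that fell are not named. Btg1, an antiproliferative factor that lymphocytes also express strongly, rose by 0.74 ± 0.15 (adjusted p = 0.000174), Rb1, the retinoblastoma protein, by 0.41 ± 0.09 (adjusted p = 0.000626) and Cdkn1a, the inhibitor p21, by 0.55 ± 0.17 (adjusted p = 0.00732). With the array-wide component as a covariate none of these 3 passed, with Btg1 at 0.27 ± 0.12, Rb1 at 0.12 ± 0.07 and Cdkn1a at 0.01 ± 0.13. In stabilization tumours 4 rose and 3 fell against non-responders, Btg1 by 1.41 ± 0.34, Cdkn1a by 1.41 ± 0.39 and Rb1 by 0.75 ± 0.21 (adjusted p = 0.00266, 0.00609 and 0.00668), beside 13.3% of all genes higher and 18% lower. Without the 5 tumours low in melanocyte transcripts only stabilization replicate 3 was left in its group. That fit therefore cannot decide whether the 15 changed in stabilization tumours. T cell transcripts, 11 in the list, rose with response in the same samples, with a median of 7.43 in study 3 responders, 6.12 in non-responders and 5.896 in IgG tumours, and their part in these values was not tested.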

How the data were processed

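Total RNA from 90 tumours was hybridised to arrays of 45101 probe sets. The authors deposited log2 values (2.19 to 14.84, array medians 5.71 to 5.90), made with RMA and limma per the submitters' processing notes. Versions, and whether the studies were normalized together, are not given in the sources used here. Of the probe sets, 34958 name 1 gene, 932 several and 9211 none, and the first gave 18194 genes. One limma model (limma 3.58.1, R 4.3.3) with a mean for each of the 12 groups was fitted to all arrays, with 2-sided tests, Benjamini-Hochberg adjustment over all genes and a threshold of 0.05. Each tumour carries its own animal number, and p-values rest on the spread among tumours. The members and lists were chosen with earlier results of these data known. Values are given for Mki67, Top2a, Mcm2 and Pcna in every group, for the largest rises and falls, for the members of each role with the smallest p, for the 3 genes of each further list with the smallest p, and for extremes. Alternatives changed the probe set rule, centring, normalization, dim-gene filter, arrays fitted and tumours. The array-wide component, the 3 prime to 5 prime covariate and leaving out study 3 responders 3 and 4, study 2 non-responder 14 and study 2 responder 4 were chosen after seeing the data. The 5 tumours low in melanocyte transcripts were likewise picked from values of these same arrays. They include study 3 responders 3 and 4 and stabilization tumours 1 and 2, so a fit without them can also lose a response effect. The model was tested on simulated data. Probe sets of several genes or none were left out. The number of arrays limits the precision.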

Additional observations from a re-analysis of the deposited data

Results flagged for a closer look

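Within groups of 4 to 10 tumours, 10 of 48 checks found 1 tumour standing far from its group, where independent checks give about 1 in 20 by chance. The checks are not independent, since the class means contain the single genes checked. All 10 came from study 3 responder replicate 4 and study 3 PBS replicate 2, so the excess over chance cannot be judged. Study 3 responder replicate 4, the tumour with the highest muscle transcripts of its group (13.77), was the lowest in 7 of them. Its S phase mean was 8.513 (next tumour 9.518), its mitosis mean 7.727 (8.893), Top2a 9.043 (10.561), Pcna 11.822 (12.565), Gmnn 8.567 (9.869), Mad2l1 8.873 (10.423) and Cenpa 8.042 (9.442).

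Study 3 PBS replicate 2 stood apart in the other 3. It had the highest Mki67 of its 4 tumours at 11.651 (next 10.49) and the highest Top2a at 11.449 (10.922), and the lowest Cenpa at 10.535 (11.036). Its control probe sets for Actb and Gapdh had a 3 prime minus 5 prime log2 difference of 5.20, and the part of that in these values was not tested.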

How the results depend on the processing

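No paired analysis was possible because replicate numbers only name tumours in accession order and every tumour has its own animal number. Over the comparisons and alternatives run, 131 counts of members past the threshold stayed within 1.5 times the reported count and 39 did not. These are counts of members only, and the cause of the moves was not tested. The share of all genes called moved as well. For responders against non-responders 32.3% of all genes fell in the main fit and 0.484% with the array-wide component. A move of a member count is therefore not particular to the members. With the array-wide component, counts were 0 for responders against non-responders over both studies (17) and in study 3 (17), 0 for responders against IgG (17), 0 for relapse (1) and stabilization (30) against non-responders, and 6 for stabilization against IgG (27). The fit without the 5 tumours low in melanocyte transcripts left 1 stabilization tumour, so its counts for stabilization are left out. For the rest, counts were 9 in study 2 (0), 1 in study 3 and 5 for responders against IgG. For relapse they were 14 against non-responders and 3 against IgG (0). With only the groups compared they were 0 for responders in study 3, 6 for relapse against non-responders, 5 for relapse against IgG and 5 for stabilization against IgG. Median centring gave 1 in study 2 and 5 for relapse against non-responders, where the mean of probe sets and quantile normalization gave 0 and the 3 prime to 5 prime covariate gave 2.

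Leaving out single tumours gave 0 to 1 calls for responders in study 2, 2 to 5 in study 3, 8 to 16 for responders against IgG and 0 to 3 for relapse against non-responders. It gave 0 to 11 for stabilization against responders, 0 to 35 against non-responders and 0 to 37 against IgG. These too are counts of members only, given without the shares of all genes, so they show nothing particular to the members.

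Signs of called members turned with the component for responders against non-responders in Aurka (0.084), Birc5 (0.052), Ccne2 (0.30), Cdk1 (0.027), Cenpa (0.0097), Gmnn (0.10), Mad2l1 (0.069), Ndc80 (0.06), Nuf2 (0.10), Rrm2 (0.036), Tk1 (0.038) and Ttk (0.046). Against IgG they turned in Aurka (0.043), Ccne2 (0.18), Gmnn (0.11), Mad2l1 (0.079), Ndc80 (0.038), Nuf2 (0.043), Pcna (0.0051) and Tk1 (0.026), and for stabilization against non-responders in Ccne2 (0.23), Gmnn (0.16) and Ndc80 (0.020). Without the 5 tumours, with only replicate 3 left in the stabilization group, they turned for stabilization in Ccnb2 (0.054), Kif20a (0.087), Kif2c (0.084) and Ndc80 (0.035).

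Of the group means against IgG, the growth delay S phase difference moved to 0.055 with the mean of probe sets, 0.14 with centring and 0.09 with quantile normalization, and its mitosis difference to 0.15 and 0.10 with the last pair. Centring moved the relapse differences to -0.073 for S phase and -0.070 for mitosis in study 2 and to -0.138 and -0.093 in study 3.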
